A study of Mus musculus with 8 samples.

Results

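Arachnoid barrier cells form the outer seal of the meninges, and this account describes 7 genes associated with that barrier: Slc6a20a, Slc6a13, Slc22a8, Ttr, Gjb6, Gjb2 and Cldn11. They were selected by gene name from a table of 3624 listed genes, with their fold changes already known, so the rises below describe the choice and are not tested. All 7 names were found, once each. RNA had been sequenced from primary astrocyte cultures of newborn mouse retinas and optic nerves (postnatal day 1 to 3): 4 samples from Spp1-/- mice of strain B6.129S6(Cg)-Spp1tm1Blh/J and 4 from wild-type C57BL/6 mice. Both groups were grown in serum-containing DMEM/F12 medium. Spp1 encodes osteopontin, a secreted matrix protein and cytokine; the mice lacked it in every cell, and the labels do not say whether the wild types were littermates, how many mice were pooled, or which sex they were. The labels also do not say whether samples of a genotype were separate cultures, so the authors' p-values measure a spread that may be technical.

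As background, arachnoid barrier cells join to each other through tight junctions and carry transporters that clear solutes from cerebrospinal fluid, much as the choroid plexus does. Connexins form gap junctions between cells of the leptomeninges, and also between astrocytes. Optic nerve is wrapped in meninges, whereas retina is not. None of the 7 genes marks barrier cells alone: Gjb6 is a classical astrocyte connexin, Cldn11 a claudin of oligodendrocyte myelin, and Ttr a product of choroid plexus and retinal pigment epithelium.

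All 7 genes were higher in Spp1 KO cultures, with log2 fold changes (Spp1 KO over wild type) from 2.63 to 6.74 in the authors' deposited table. A gene entered the table when its adjusted p was under 0.05 and its absolute log2 fold change was at least 0.58. The ratio of adjusted to raw p-value, times the rank of the gene by p-value, put the number of genes tested at about 16644. On that number 21.8% of tested genes were listed and 12% were listed as higher. Of the listed genes 54.9% were higher, with a median log2 fold change of 0.66 over the whole table, and 8.11% reached the fold change of Gjb2, the smallest of the 7. Since the names were picked from this same contrast, nothing is read from 7 of 7. The table has no values per sample, so overlap between the groups could not be seen. The group means below, called implied means, were worked out from each gene's mean normalized count and fold change. Spp1 itself, the deleted gene, had an implied mean of 441 in Spp1 KO and 26271 in wild-type cultures, derived from the authors' deposited table, and its sign fixes the direction of every fold change.

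**Figure D1:**
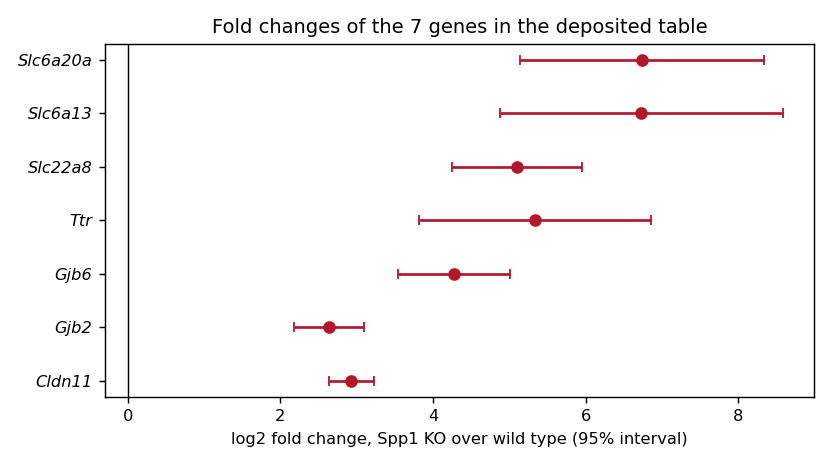
Log2 fold change of Spp1 KO over wild type (horizontal axis) for the 7 genes, as points with 95% intervals from the deposited standard errors. Every interval lies above 0, and those of Gjb2 and Cldn11, which end at 3.09 and 3.22, are the narrowest and the lowest.

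The solute carriers of the Slc6 family had the largest fold changes and rested on the fewest wild-type reads. Slc6a20a encodes a sodium-coupled transporter of proline and other imino acids. Its implied mean normalized count was 94.6 in Spp1 KO and 0.887 in wild-type cultures, derived from the authors' deposited table. The log2 fold change was 6.74 with a standard error of 0.82 per the authors' deposited table (adjusted p = 5.15e-15). This is a 107-fold higher level with a 95% interval of 35.2 to 324. It ranked 4 among all listed genes by log2 fold change. An implied mean of 0.887 corresponds to about 3.55 normalized counts over all 4 wild-type samples, so the gene was near the limit of detection there. Counting error of the implied means alone would give a standard error of 0.77, or 88.7% of the deposited variance, so most of the width of the interval is counting error.

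Slc6a13 encodes a transporter of GABA and taurine (also named Gat2) that is known from meninges, liver and kidney rather than from neurons. Its implied mean was 70.2 in Spp1 KO and 0.661 in wild-type cultures, derived from the authors' deposited table. The log2 fold change of 6.73 (standard error 0.95, adjusted p = 2.55e-11, authors' deposited table) ranked 5, next to Slc6a20a. The 95% interval of the fold ran from 29.3 to 384, and counting error accounted for 88.6% of the deposited variance. The intervals of both genes overlap almost fully, so their order carries no information.

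The few listed relatives of these carriers were lower. Of 20 Slc6 genes 6 were listed and 14 were not, and without Slc6a20a and Slc6a13 the 4 listed genes were lower in the Spp1 KO. These are 4 of 18 genes, close to the 21.8% of all tested genes listed, so no fall of the family is read. Slc6a11, a GABA transporter of astrocytes, had a log2 fold change of -1.49 per the authors' deposited table. Its implied mean was 79.2 in Spp1 KO and 222.1 in wild-type cultures, derived from the authors' deposited table. The glycine transporter Slc6a9 fell by 0.86 and the proline transporter Slc6a7 by 4.68 per the authors' deposited table, the last with an implied mean of 0.196 in Spp1 KO and 5.02 in wild type. So low an implied mean may stand for no counts at all, so the size of the Slc6a7 fall is not read. Slc6a12, the betaine transporter next to Slc6a13, was not listed, and neither was Slc6a6, the main taurine transporter. An unlisted gene may have missed a limit or not been tested, so absence is not read as no change. Of 20 genes that make or break down GABA, taurine, betaine and proline, 3 were listed: Fmo1, a monooxygenase, rose by 1.63, while the proline synthesis genes Pycr1 and Aldh18a1 fell by 1.01 and 0.62 per the authors' deposited table. The median of these 3 was -0.62.

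The start region of Slc6a20a is shown because this gene had the largest fold change of the 7. It spans chr9:123678783-123679082 on the minus strand of GRCm38.p6 (RefSeq), from 250 bases before to 50 bases after the start of the transcript, written 5′ to 3′. Capitals mark matches, on either strand, to any of 4 motifs. The GC box was searched as GGGCGG and the AP-1 site as TGANTCA, where N is any base. The TATA-type box was searched as TATANAA, and the fourth motif was the pentamer CCAAT.
Slc6a20a: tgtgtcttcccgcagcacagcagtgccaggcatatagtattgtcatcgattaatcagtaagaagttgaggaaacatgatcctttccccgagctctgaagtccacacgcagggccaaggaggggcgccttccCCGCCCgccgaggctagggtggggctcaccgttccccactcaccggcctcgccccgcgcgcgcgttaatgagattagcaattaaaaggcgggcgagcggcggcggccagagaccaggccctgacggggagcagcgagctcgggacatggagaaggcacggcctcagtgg
It held 25 CpG pairs, against a median of 7 over 32851 promoter windows, and 1 GC box, which 35.7% of all windows hold. Slc6a13 had 3 annotated start regions, of which the first, at chr6:121300038-121300337 on the plus strand, held 11 CpG pairs and 2 GC boxes.

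Slc22a8 encodes the organic anion transporter Oat3, which moves drugs, hormone conjugates and metabolites out of cerebrospinal fluid in choroid plexus and meninges. The implied mean was 224 in Spp1 KO and 6.53 in wild-type cultures, derived from the authors' deposited table. Its log2 fold change was 5.10 with a standard error of 0.44 (adjusted p = 8.1e-30) per the authors' deposited table, a 34.4-fold higher level with a 95% interval of 19.0 to 62.1. Wild-type samples held about 26.1 normalized counts together, and counting error made up 43.2% of the deposited variance. The wild-type level was therefore low but measurable, unlike that of the Slc6 genes.

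Of 25 Slc22 genes 3 were listed and all were higher. Among all tested genes 12% were listed as higher, so no rise of the family is read from this count. Besides Slc22a8 the listed Slc22 genes were Slc22a4, an ergothioneine and carnitine transporter (log2 fold change 1.90, standard error 0.15), and Slc22a18 (1.49, 0.39) per the authors' deposited table. Slc22a6, the neighbouring gene that encodes the related anion transporter Oat1, was not listed. Of 31 other transporters of organic anions, organic cations and drugs, 14 were listed, of which 10 rose and 4 fell, and their median change was 1.0 on the log2 scale. The largest rises were Abcc3, an efflux pump of conjugated anions (2.84), Slc47a1, a cation extruder (2.49, standard error 0.99), Slco4a1 (2.03) and Abcb1a, the drug pump P-glycoprotein (1.66), per the authors' deposited table. The 4 that fell were Slco1b2 (-4.74, implied mean 0.196 in Spp1 KO and 5.22 in wild type), the thyroxine carrier Slco1c1 (-2.33), the prostaglandin carrier Slco2a1 (-1.02) and the drug pump Abcg2 (-0.95) per the authors' deposited table.

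The start region of Slc22a8 is shown because it is the poorest in CpG of the windows printed here. It lies at chr19:8592932-8593231 on the plus strand (RefSeq, GRCm38.p6) and is marked in the same way.
Slc22a8: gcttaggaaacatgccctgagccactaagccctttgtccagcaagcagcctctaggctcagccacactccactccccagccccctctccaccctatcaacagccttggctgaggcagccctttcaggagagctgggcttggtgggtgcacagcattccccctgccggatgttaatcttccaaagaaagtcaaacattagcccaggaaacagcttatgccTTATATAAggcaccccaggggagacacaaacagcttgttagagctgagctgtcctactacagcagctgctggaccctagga
It held 1 CpG pair, and 5.43% of windows held fewer. The capitals are a TATA motif read on both strands, whose matches overlap and begin 31 and 30 bases before the start; 11.3% of all windows hold this motif. A motif match describes letters and shows no binding.

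Ttr encodes transthyretin, which carries thyroxine and, through retinol-binding protein, retinol. Its implied mean was 82.0 in Spp1 KO and 2.03 in wild-type cultures, derived from the authors' deposited table. The log2 fold change was 5.34 with a standard error of 0.77 (adjusted p = 1.08e-10) per the authors' deposited table, a 40.5-fold higher level with a 95% interval of 14.2 to 116. Wild-type samples held about 8.1 normalized counts in all, and counting error made up 43.9% of the deposited variance. Slc22a8 had nearly the same share, so for Ttr and Slc22a8 most of the variance came from the spread between samples as the authors' model fitted it. The 95% interval of Ttr overlaps those of Slc6a20a, Slc6a13, Slc22a8 and Gjb6.

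Genes of retinoid and thyroid hormone handling moved both ways. Of 29 such genes 18 were listed, beside 21.8% of all tested genes. Without Ttr 9 rose and 8 fell, around a median of 0.69 on the log2 scale. Rises per the authors' deposited table included Rbp4, the plasma retinol-binding partner of transthyretin (2.91, standard error 0.83), the deiodinase genes Dio2 (2.08) and Dio3 (1.72), and the retinoic acid synthesis gene Aldh1a2 (1.76). Rbp4 was scarce, with an implied mean of 17.4 in Spp1 KO and 2.31 in wild-type cultures, derived from the authors' deposited table. Falls per the authors' deposited table included the retinoid receptor gene Rxrg (-3.43, implied mean 1.25 in Spp1 KO and 13.5 in wild type), Slco1c1, Aldh1a3 (-1.89), which like Aldh1a2 encodes a retinoic acid synthesis enzyme, and Hr, a corepressor of the thyroid hormone receptor (-1.68).

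**Figure D2:**
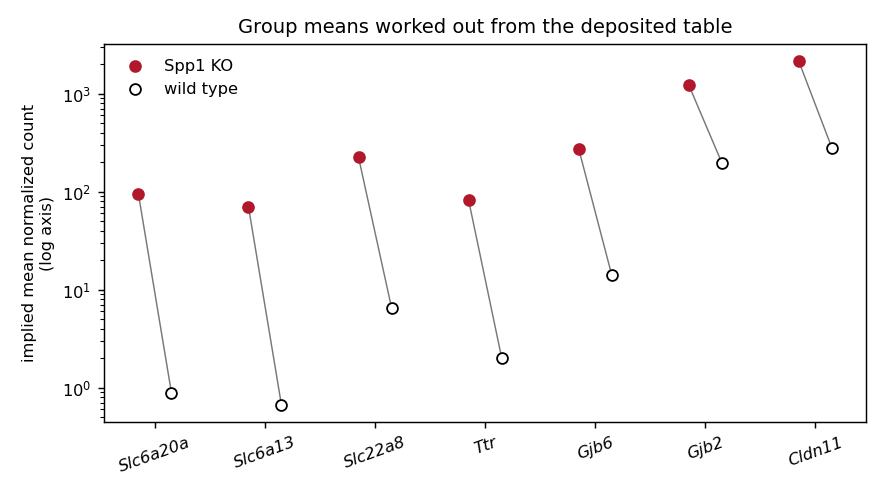
Implied mean normalized count (log axis) of each gene in Spp1 KO (filled red) and wild-type (open) cultures, joined by a line; no per-sample values exist, so no error is drawn. The Slc6 genes sit below 1 in wild type, whereas Gjb2 and Cldn11 stand at 198 and 282 there.

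The junction genes were more abundant and better measured. Gjb6 encodes connexin Cx30 and Gjb2 connexin Cx26, channel proteins that couple neighbouring cells. Gjb6 had an implied mean of 274.7 in Spp1 KO and 14.2 in wild-type cultures, derived from the authors' deposited table. Its log2 fold change was 4.28 with a standard error of 0.37 (adjusted p = 1.13e-28) per the authors' deposited table, or 19.4-fold with a 95% interval of 11.7 to 32.1. Gjb2 had an implied mean of 1229 in Spp1 KO and 198 in wild-type cultures, derived from the authors' deposited table. Its log2 fold change of 2.63 (standard error 0.23, adjusted p = 8.54e-28, authors' deposited table) is a 6.2-fold difference with a 95% interval of 4.52 to 8.51. The interval of Gjb6 lies wholly above that of Gjb2, though both come from the same samples and the difference was not tested. Counting error made up 27.8% of the deposited variance for Gjb6 and 5.62% for Gjb2.

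Gjb2 and Gjb6 lie side by side on the minus strand of chromosome 14, 18600 bases apart. Per kilobase of exon, Gjb2 stood 4.97 times as high as Gjb6 in Spp1 KO and 15.5 times as high in wild-type cultures, from the implied means. Their start regions are shown because the neighbours changed in the same direction while differing in base composition; Gjb2 is at chr14:57104653-57104952 and Gjb6 at chr14:57133562-57133861 (RefSeq, GRCm38.p6, marked as before).
Gjb2: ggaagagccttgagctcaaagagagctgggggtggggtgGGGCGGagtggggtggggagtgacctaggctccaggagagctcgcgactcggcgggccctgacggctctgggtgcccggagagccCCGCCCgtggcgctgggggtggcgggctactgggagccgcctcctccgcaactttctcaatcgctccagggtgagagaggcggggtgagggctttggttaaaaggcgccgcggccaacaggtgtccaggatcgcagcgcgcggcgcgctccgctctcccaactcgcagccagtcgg
Gjb6: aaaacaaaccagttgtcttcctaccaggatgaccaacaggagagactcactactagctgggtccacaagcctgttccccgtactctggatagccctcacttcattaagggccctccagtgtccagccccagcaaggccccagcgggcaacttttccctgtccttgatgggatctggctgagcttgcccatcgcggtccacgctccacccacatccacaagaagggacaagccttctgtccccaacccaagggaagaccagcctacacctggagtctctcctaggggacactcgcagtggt
Gjb2 held 27 CpG pairs, more than 84.5% of all windows, and 2 GC boxes, which begin 211 and 126 bases before the start. Gjb6 held 6 CpG pairs and none of the 4 motifs, so its line has no capitals.

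Gjb2 and Gjb6 were the higher genes among the listed connexins. Of 23 connexins and pannexins 8 were listed, beside 21.8% of all tested genes. The other 6 listed genes had fallen, around a median of -2.45 on the log2 scale, and 15 were not listed. All 6 falls are lost once the mean count must reach 100, which leaves 0 lower genes and keeps Gjb2 and Gjb6. Gjb1 (-6.09) and Gjc3 (-2.37), connexins of myelinating cells, fell per the authors' deposited table, as did Gjd4 (-3.05) and the vascular connexin gene Gja5 (-1.44). The largest of these falls rested on small counts, with an implied mean of 0.2 in Spp1 KO and 13.6 in wild type for Gjb1, derived from the authors' deposited table. Gja1, the main connexin of astrocytes, was not listed.

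Cldn11 encodes a claudin that seals tight junctions of arachnoid cells, oligodendrocyte myelin and the testis. It was the most abundant of the 7 and the one with the smallest relative error. Its implied mean was 2145 in Spp1 KO and 282 in wild-type cultures, derived from the authors' deposited table. The log2 fold change was 2.93 with a standard error of 0.15 (adjusted p = 1.07e-81) per the authors' deposited table, a 7.62-fold higher level with a 95% interval of 6.21 to 9.34. By p-value it stood near rank 23 of all genes tested. Counting error made up only 9.25% of the deposited variance.

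The start region of Cldn11, at chr3:31149670-31149969 on the plus strand (RefSeq, GRCm38.p6), is shown because this rise is the most precisely measured of the 7.
Cldn11: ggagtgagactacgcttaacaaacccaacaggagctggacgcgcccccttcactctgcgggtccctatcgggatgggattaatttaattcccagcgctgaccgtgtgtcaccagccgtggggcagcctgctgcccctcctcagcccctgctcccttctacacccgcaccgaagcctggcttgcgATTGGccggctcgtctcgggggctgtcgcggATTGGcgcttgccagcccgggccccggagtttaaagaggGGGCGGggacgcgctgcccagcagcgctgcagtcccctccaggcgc
It held 24 CpG pairs and 2 CCAAT boxes on the minus strand, 66 and 35 bases before the start, with a GC box just inside the transcript. A CCAAT box occurs in 37.4% of all windows. The AP-1 motif, held by 7.81% of windows, was in none of the windows of the 6 genes searched, which leave out Ttr.

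Among claudins, 2 of 25 were listed, Cldn11 and Cldn2, a pore-forming claudin of choroid plexus that rose by 2.33 (standard error 0.47) per the authors' deposited table. As 21.8% of all tested genes were listed, nothing is read from this count. Of 25 other tight and adherens junction genes 9 were listed, 7 risen and 2 fallen, around a median of 1.41 on the log2 scale. Cdh1, which encodes E-cadherin, rose by 3.62 (standard error 0.63), and Ocln, which encodes the tight junction protein occludin, by 2.50 (0.23) per the authors' deposited table. The tricellular junction gene Lsr rose by 2.95, the adhesion receptor gene Cxadr by 2.11, F11r by 1.41, Cdh5 by 1.11 and Cgnl1 by 0.79 per the authors' deposited table. Nectin1 fell by 0.59 and Esam, an endothelial adhesion gene, by 3.96 per the authors' deposited table. The scaffold genes Tjp1 and Tjp3 were not listed.

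**Figure D3:**
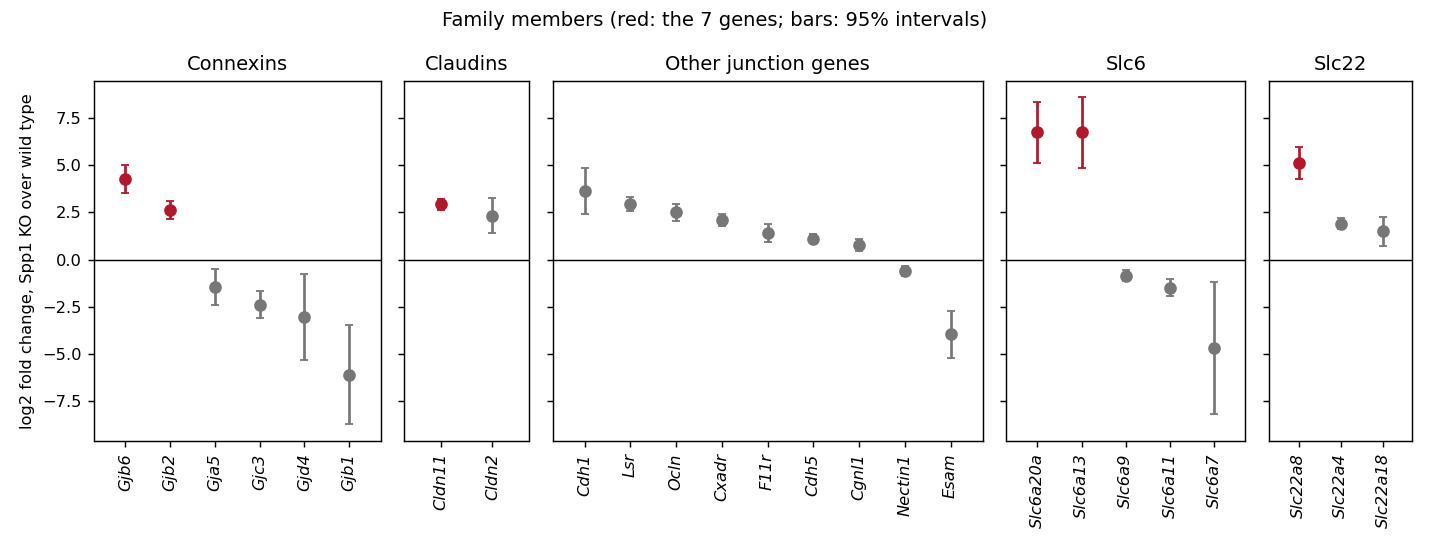
Log2 fold change of Spp1 KO over wild type (vertical axis) with 95% intervals for listed genes of 5 families; red marks the 7 genes and grey their relatives. The grey connexins and Slc6 carriers shown lie below 0, while the claudins and Slc22 genes shown lie above it.

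The 7 genes held one order of level in both genotypes, nearly the reverse of the order of their fold changes. The levels were worked out with the fold changes, so part of this reversal was fixed in advance. Per kilobase of exon, implied means in Spp1 KO cultures were 1147 for Cldn11, 511 for Gjb2, 103 for Gjb6, 69.2 for Ttr, 57.4 for Slc22a8, 24.2 for Slc6a13 and 23.2 for Slc6a20a. In wild-type cultures the same genes stood at 151, 82.4, 5.3, 1.71, 1.67, 0.228 and 0.217 per kilobase. These levels have no error of their own, so the order within the close pairs, Ttr with Slc22a8 and Slc6a13 with Slc6a20a, is not read. Against the table as a whole the mean normalized count of Cldn11 stood at percentile 79.1 and that of Slc6a13 at percentile 13.6. Of the 7, 3 had a mean normalized count under 50.

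**Figure D4:**
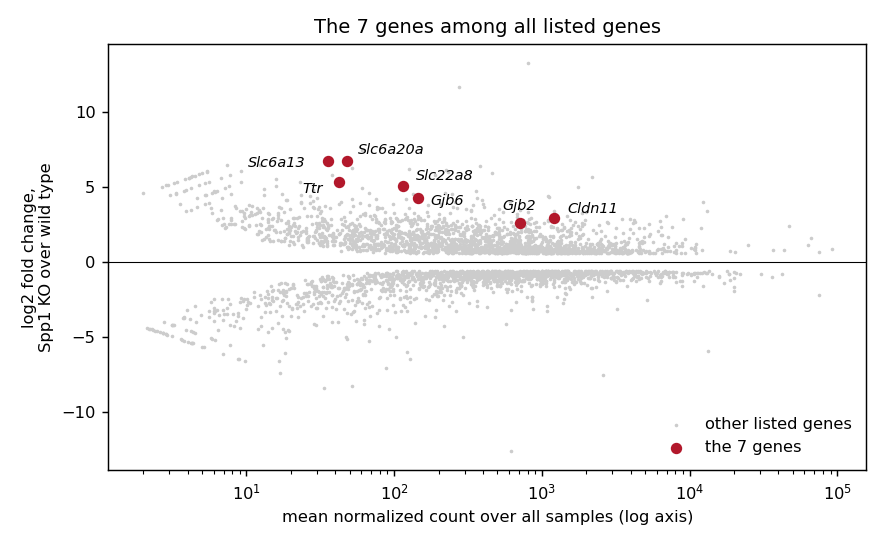
Mean normalized count over all samples (log axis) against log2 fold change for all 3624 listed genes (grey) and the 7 genes (red). The empty band around 0 is the authors' fold-change limit, and the red points run from Slc6a13 and Slc6a20a at the low-count end to Cldn11.

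Markers of the cells that use these genes were set beside them. For every marker list, the share to compare is that of all tested genes: 21.8% listed and 12% listed as higher. Of 9 further arachnoid barrier markers 5 were listed: Cdh1, Ocln, Slc47a1 and Abcb1a were higher and Abcg2 lower, while Dpp4, Klf5, Abcc4 and Tjp1 were not listed. The summed implied mean of these 5 was 1185 in Spp1 KO and 1248 in wild-type cultures, derived from the authors' deposited table, with Abcg2 contributing most of the wild-type sum. The barrier name describes known roles of the 7 genes, and of the other 9 barrier markers 4 were higher, 1 was lower and 4 were not listed. On the whole list of 15, which holds 6 of the 7 genes, 10 barrier markers were higher, and 6 once the mean count must reach 100. Of 24 markers of meningeal and other fibroblasts 17 were listed, 14 risen and 3 fallen. Their median was 0.84, beside 0.66 for the whole table, which lies just above the 0.58 entry limit and is no neutral baseline. The most certain rises were Igf2, a growth factor (3.38), Dcn, a small proteoglycan (2.87), and Fbln1 (1.86), and the falls Twist1 (-1.22), Lamc3 (-1.37) and Crabp2 (-1.18), per the authors' deposited table. Their summed implied mean was 118904 in Spp1 KO and 46066 in wild-type cultures, derived from the authors' deposited table. A single gene contributed 56076 and 31255 of these fibroblast sums.

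Choroid plexus markers were all higher where listed: 6 of 15, or 5 of 14 without Ttr. Among all tested genes 21.8% were listed and 12% were listed as higher. Once the mean count must reach 100, the 6 drop to 1, Aqp1. Aqp1, a water channel, rose by 4.43 (standard error 0.22), and Folr1, a folate receptor, by 1.95 (0.32) per the authors' deposited table, but Aqp1 is also made elsewhere. Kcnj13 and Clic6 were scarce, with implied means of 18.7 and 38.4 in Spp1 KO and 2.2 and 13.6 in wild-type cultures, derived from the authors' deposited table. The choroid plexus transcription factor genes Otx2 and Lmx1a were not listed. Retinal pigment epithelium markers were split, with 3 higher and 3 lower without Ttr. Mitf rose by 1.28, Best1 by 2.04 and Oca2 by 3.48, while Dct fell by 5.30, Trpm1 by 1.70 and Rlbp1 by 0.88 per the authors' deposited table. Once the mean count must reach 100, 1 higher gene, Mitf, and 0 lower genes of this list remain. The largest changes rested on small counts. Implied means in Spp1 KO and wild-type cultures were 0.198 and 7.81 for Dct and 12.4 and 1.11 for Oca2, derived from the authors' deposited table. Rpe65, Tyr and Pmel were not listed.

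Cldn11 and Gjb6 are also markers of glia. Of 15 other oligodendrocyte markers 13 were listed and all 13 fell, around a median of -3.11, among them Cspg4 (-2.33) and Mbp (-2.46) per the authors' deposited table. Their summed implied mean was 7016 in Spp1 KO and 26701 in wild-type cultures, derived from the authors' deposited table. A single gene contributed 4414 and 13482 of these sums. Cldn11 rose while the 13 fell, and which cells its RNA came from was not tested. Of 14 other astrocyte markers 6 were listed, 4 higher and 2 lower. Aqp4 rose by 1.15, Aldoc by 1.18 and Ndrg2 by 0.91, and Fabp7 and S100b had log2 fold changes of -1.23 and -1.82, per the authors' deposited table. No listed astrocyte marker rose by more than 1.18, against 4.28 for Gjb6.

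**Figure D5:**
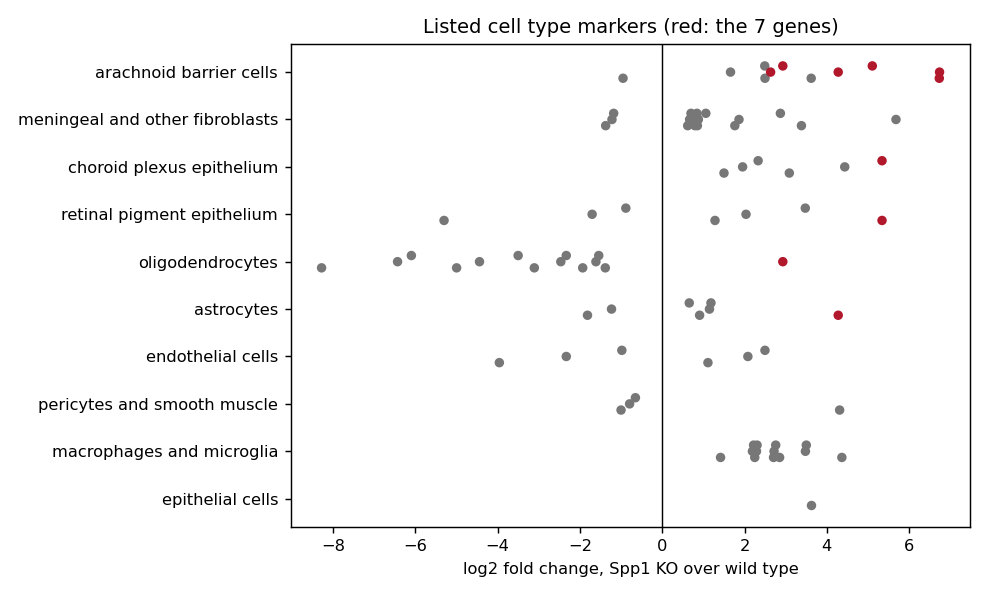
Log2 fold change of Spp1 KO over wild type (horizontal axis) of every listed gene on 10 marker lists; red marks the 7 genes, points are spread vertically for legibility only. Cldn11 is the single point above 0 among oligodendrocyte markers, and all 13 listed macrophage and microglia markers lie above 0.

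Markers of further cell types moved beside these results. All 13 listed macrophage and microglia markers of 14 were higher, with a summed implied mean of 63951 in Spp1 KO and 11448 in wild-type cultures, derived from the authors' deposited table; Mrc1, Mpeg1 and Itgam were the most certain of them and Cd163 was not listed. Endothelial markers were split, 3 higher (Kdr 2.08, Ocln, Cdh5) and 3 lower (Slco1c1, Esam, Flt1 -0.98), and Pecam1, Tek, Cldn5 and Vwf were not listed, per the authors' deposited table. Of 11 pericyte and smooth muscle markers Vtn rose by 4.31, while Acta2 stood at -1.0, Tagln at -0.79 and Notch3 at -0.65, per the authors' deposited table. Cdh1 was the single listed gene of 11 general epithelial markers. The part of any of these cell types in the 7 rises was not tested, and in bulk RNA more cells of a type and more RNA per cell cannot be told apart. The Y-linked genes Ddx3y and Eif2s3y had implied means of 1605 and 550.1 in Spp1 KO and 0.164 and 0.164 in wild-type cultures, derived from the authors' deposited table, so sex and genotype cannot be told apart either.

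The 7 genes lie on 6 chromosomes (3, 6, 9, 14, 18 and 19), none on chromosome 5 with Spp1, where sequence of the donor strain may flank the deleted gene. In the GENCODE annotation of GRCm38 they span 31149920 to 31164324 on chromosome 3 (Cldn11, plus strand), 121300227 to 121337733 on chromosome 6 (Slc6a13, plus), 123634770 to 123678885 on chromosome 9 (Slc6a20a, minus) and 8591254 to 8611835 on chromosome 19 (Slc22a8, plus). Gjb2 spans 57098600 to 57104702 and Gjb6 57123303 to 57133611 on chromosome 14. The nearest protein-coding gene on each side of each of the 7 was unlisted in every case, and Gjb2 and Gjb6 have only the predicted gene Gm4491 between them. Slc6a20a needs care because its exons overlap those of Ccr9 and of the non-coding genes Gm17120 and Gm17200 on the other strand, and 26.7% of its 50-base stretches also occur in transcripts of other genes, most often Slc6a20b, the adjacent copy. No source used here says whether counting used strand, so reads of these genes may be mixed. For the other 6 genes at most 0.457% of 50-base stretches were shared.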

How the data were processed

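RNA of 4 Spp1 KO and 4 wild-type astrocyte cultures was compared by the authors. Tools in the submitters' processing notes are DESeq2 1.30.1, STAR 2.7 and CASAVA 1.8, with the build GRCm38; no source used here gives the annotation or the counting step. Per the file headers, the authors' deposited table holds 3624 genes with a signal value, the mean of normalized counts across the 8 samples, the log2 fold change between genotypes, its standard error (log2), the Wald score, and raw and adjusted p-values. Dividing fold change by standard error gave the Wald score to within 1.51e-07. There were 0 columns of per-sample values, so depth is unknown, no fit was made here and the planned count model could not be run. The header does not state the direction, which was read from Spp1.

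Implied means assume equal weight of the 4 and 4 samples. The lowest of them nearly coincide: about 0.2 in Spp1 KO for Slc6a7, Slco1b2, Dct and Gjb1, and 0.164 in wild type for Ddx3y and Eif2s3y. Such values may stand for groups without counts, so the sizes of these fold changes are not read. Intervals are the log2 fold change ± 1.96 standard errors (95%). Counting error was computed as Poisson error of the implied means, taking libraries of equal depth; it exceeded the deposited standard error for 0.966% of listed genes and had a median share of 8.25% of the variance. The number of genes tested was the median, over the 20 smallest p-values above 0, of adjusted p times rank over raw p. The step was tested on simulated data. Lengths and positions came from GENCODE M21 and promoter windows from RefSeq, and Python 3.11.15 with pandas 2.3.3 was used. Promoter windows of 6 of the 7 genes were searched and Ttr was left out. Motifs were chosen with the sequences seen. The members and the 18 gene lists were chosen with earlier results of these data known. Named genes were the 7 members, up to 3 genes each way with the smallest adjusted p per marker list, every listed gene of a family or pathway list with at most 12, else the 4 largest changes each way; Kcnj13, Clic6 and the unlisted genes were named after their values were seen. Some genes that this rule names are not reported here.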

Additional observations from a re-analysis of the deposited data

How the results depend on the processing

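All 7 genes were higher at an adjusted p of at most 0.001, under a Bonferroni limit over the estimated 16644 tests, with an interval above 1 on the log2 scale and after centring on the median of the authors' deposited table; only 4 had a mean normalized count of at least 100 (Slc22a8, Gjb6, Gjb2 and Cldn11). The names were picked from this same contrast with their values known, so these 7 of 7 were largely set by that choice and test nothing. Centring lowered every log2 fold change by 0.66, a median of listed genes only, which lies just above the 0.58 entry limit. Shrinkage toward 0 moved Slc6a13 most, to 5.37, and Cldn11 least, to 2.91. Its prior (standard deviation 1.88) was taken from the listed genes alone. That leaves out the tested genes that were not listed, so the shrinkage was probably too mild. Over the 18 lists 76 genes were higher and 47 lower. With a mean of at least 100 the higher count fell to 58 and the lower count to 28. Of 180 single-list counts under alternatives, 145 stayed within 1.5 times and 35 fell further. Part of the 145 was fixed in advance. Counts of 0 could not fall, and lists that hold none of the 7 genes could not change when these were left out. No paired analysis was possible because the deposited table has no values per sample, and leaving out a replicate could not be run for the same reason. Counting error took the largest share of the variance for Slc6a20a and Slc6a13, at 88.7% and 88.6%.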
